A study of Mus musculus with 8 samples.

Results

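The Vmn2r genes encode the V2R receptors of the mouse vomeronasal organ, and the peak lists for 2 chromatin-remodeling proteins in uterine stromal cells were searched for peaks at them. Members were the protein-coding genes of the GENCODE annotation of GRCm38 (mm10) whose symbol is Vmn2r followed only by digits. This rule gave 120 of 21951 protein-coding genes. Of these, 51 lie on chromosome 7, 31 on chromosome 17, 11 on chromosome 5, 9 on chromosome 6, 8 on chromosome 10, 7 on chromosome 3, 2 on chromosome 14 and 1 on the X chromosome. They measure 9902 to 159722 bp from end to end, with a median of 27159.5 bp, and together cover 3.67 Mb.

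ChIC-Seq maps where a protein sits on chromatin: an antibody carries micrococcal nuclease to its target, and the fragments that the nuclease releases are sequenced. The antibodies were against PBRM1, a bromodomain protein particular to the PBAF form of the SWI/SNF remodeling complex, and against BRG1, the ATPase that drives SWI/SNF complexes. Each was used on 3 libraries of primary stromal cells from wild-type (WT) mice aged 8 to 12 weeks. Uterine horns of 5 to 10 mice were digested together for a preparation, the cells were plated for a few hours, and 50000 fixed cells went into a library. The labels date the mice to day 4 of pregnancy, while the protocol calls them pseudopregnant at D4. Every library is WT with no further treatment, so no list comes from cells that lack PBRM1 or BRG1, and 2 IgG libraries were not analysed here. The lists are 1 per library plus 1 per antibody in which the authors pooled the 3 libraries. The library lists hold 21912 to 40610 peaks from 8868777 to 16505239 fragments. The pooled lists hold 55119 peaks for PBRM1 and 82669 for BRG1, from 38144108 and 37842839 fragments. The files hold no transcript levels, so whether Vmn2r genes were transcribed in these cells was not measured.

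V2Rs are G protein-coupled receptors with a large extracellular domain that binds peptide and protein pheromones. They are displayed by the basal layer of vomeronasal sensory neurons, where they act through the G protein subunit Gnao1 and the ion channel Trpc2. The genes arose by repeated local duplication and stand in dense arrays, and Vmn2r1 to Vmn2r7 form the divergent family C, whose members are broadly co-expressed with the other V2Rs.

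The sequence at the start of a typical member was poor in CG dinucleotides. The first 4 sequences below are RefSeq promoter windows (GRCm38.p6), 250 bases before to 50 after a start site. They are shown because they contrast a member at its own start, the same member at a second start 30961 bp upstream, and a member and a zinc finger gene that stand in the same array. CG dinucleotides are in capitals. The windows are chr7:7247279-7247578 (minus strand), chr7:7278240-7278539 (minus), chr7:41448592-41448891 (minus) and chr7:41633281-41633580 (plus).
Vmn2r29, own start: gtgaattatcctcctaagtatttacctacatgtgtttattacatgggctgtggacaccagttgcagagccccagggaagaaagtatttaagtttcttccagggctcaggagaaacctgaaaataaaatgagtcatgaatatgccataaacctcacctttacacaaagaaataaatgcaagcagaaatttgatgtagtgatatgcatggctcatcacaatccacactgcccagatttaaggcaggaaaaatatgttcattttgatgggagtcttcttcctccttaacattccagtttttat
Vmn2r29, upstream start: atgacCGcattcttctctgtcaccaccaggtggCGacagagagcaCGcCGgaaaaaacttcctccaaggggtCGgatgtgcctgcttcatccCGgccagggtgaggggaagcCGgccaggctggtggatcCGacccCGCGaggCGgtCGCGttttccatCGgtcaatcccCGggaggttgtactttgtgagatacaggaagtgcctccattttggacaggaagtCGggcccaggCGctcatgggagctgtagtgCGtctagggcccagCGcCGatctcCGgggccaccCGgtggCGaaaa
Vmn2r57: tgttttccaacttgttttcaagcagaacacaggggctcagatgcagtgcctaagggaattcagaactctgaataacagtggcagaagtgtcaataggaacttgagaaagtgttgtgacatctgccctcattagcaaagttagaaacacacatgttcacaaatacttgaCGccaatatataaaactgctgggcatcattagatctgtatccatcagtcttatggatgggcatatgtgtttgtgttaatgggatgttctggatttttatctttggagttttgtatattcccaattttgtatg
Zfp788: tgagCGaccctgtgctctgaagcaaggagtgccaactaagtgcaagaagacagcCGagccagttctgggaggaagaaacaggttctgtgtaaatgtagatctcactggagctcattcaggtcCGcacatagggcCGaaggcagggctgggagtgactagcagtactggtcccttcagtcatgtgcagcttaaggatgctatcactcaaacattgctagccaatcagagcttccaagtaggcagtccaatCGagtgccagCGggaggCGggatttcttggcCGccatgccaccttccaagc
The own start of Vmn2r29 holds 0 CG, Vmn2r57 holds 1, Zfp788 holds 8 and the upstream start of Vmn2r29 holds 23. A window with at least 23 CG was found for 21.5% of all 32851 promoters in the RefSeq table. The table matched 114 of the 120 members. With start sites from GENCODE, the 120 members held 0 to 4 CG in the same 300 bp window, with a median of 1. The median was also 1 in Vmn1r and in Olfr genes, 7 in Zfp9xx genes and 11 in the 21818 other nuclear protein-coding genes. G and C made up a median of 38.3% of the Vmn2r window and 55% of the window in other genes.

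The next 4 sequences are 121 bases of the plus strand of GRCm38 centred on peak summits. The first 3 are shown because they are peaks at members in single libraries, and the last because it is a site within a Vmn2r array that all 8 lists share and that lies near no annotated gene start. Their windows are chr3:64843776-64843896, chr3:64843004-64843124, chr3:64085113-64085233 and chr17:17910228-17910348.
Vmn2r7, PBRM1 replicate 2: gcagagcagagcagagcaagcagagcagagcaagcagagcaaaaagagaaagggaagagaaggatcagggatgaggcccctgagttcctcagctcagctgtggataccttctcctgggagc
Vmn2r7, BRG1 replicate 1: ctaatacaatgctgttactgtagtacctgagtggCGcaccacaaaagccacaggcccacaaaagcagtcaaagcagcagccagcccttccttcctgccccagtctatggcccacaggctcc
Vmn2r1, BRG1 replicate 2: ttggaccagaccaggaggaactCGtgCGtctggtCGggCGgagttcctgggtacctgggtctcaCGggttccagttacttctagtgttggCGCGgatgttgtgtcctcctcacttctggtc
Vmn2r90 to Vmn2r110 array, all lists: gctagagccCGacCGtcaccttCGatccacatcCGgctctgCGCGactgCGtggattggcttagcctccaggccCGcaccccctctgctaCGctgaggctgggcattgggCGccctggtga
The Vmn2r7 windows hold 0 and 1 CG, the Vmn2r1 window holds 7 and the shared site of the array holds 10.

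Vmn2r genes were almost without peaks of either protein. A promoter peak, meaning a peak that overlaps the 2000 bp either side of an annotated transcript start, was found at 0, 1 and 0 of the 120 members in PBRM1 replicates 1, 2 and 3. It was found at 1, 0 and 0 members in BRG1 replicates 1, 2 and 3. In the same lists 60.0%, 60.7% and 55.3% of all protein-coding genes had a promoter peak for PBRM1, and 66.1%, 65.1% and 65.0% for BRG1. The pooled lists gave 0 members for PBRM1, where 68.7% of all genes had a promoter peak, and 1 member for BRG1, where 72.1% had 1. Vmn2r7 was the member behind each of these counts. A list with 0 of 120 allows a share of up to 2.5%, taken as 3 counts over 120 genes. This limit treats members as independent, which neighbours in an array may not be.

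A peak anywhere in the gene body was almost as rare. The PBRM1 replicates had a body peak at 0, 2 and 0 members, against 60.3%, 61.6% and 55.7% of all protein-coding genes. The BRG1 replicates had a body peak at 1, 1 and 0 members, against 67.7%, 66.7% and 66.6% of all genes. The pooled lists had 1 member for PBRM1 and 3 for BRG1, where 70.9% and 74.4% of all genes had a body peak. Of the 120 members, 116 (96.7%) had no promoter or body peak in any of the 8 lists, while 77.1% of all protein-coding genes had 1 in some list.

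The replicate lists averaged 0.278% ± 0.43 of Vmn2r genes with a promoter peak (SD, n = 6 lists), against 62.4% of other protein-coding genes. The difference was -62.1 percentage points ± 4.08 (SD), and Vmn2r was lower in 6 of 6 lists. The exact sign-flip permutation test over the lists (two-sided) gave p = 0.0312, the smallest it can give with 6 lists, and 0.0417 after Benjamini-Hochberg adjustment over 8 comparisons. Per Mb of gene body there were 0.182 ± 0.223 peaks in Vmn2r genes and 21 in other protein-coding genes, a difference of -20.8 ± 4.75 with the same exact p of 0.0312 (adjusted 0.0417) and lower in 6 of 6 lists. With any 1 list left out the test cannot go below 0.0625, so these calls need all 6 lists. A gene body takes in part of its promoter window, so the body and promoter results overlap. Without the peaks within 2000 bp of the own start sites, the body difference was -6.37 per Mb (adjusted exact sign-flip p = 0.125). Nothing in the sources says that the PBRM1 and BRG1 libraries of a number came from separate preparations, so the lists may not be independent.

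The highest density at Vmn2r genes was in the pooled BRG1 list, at 0.818 peaks per Mb of gene body (exact Poisson 95% interval 0.169 to 2.39, counting error only). That list held 31.2 peaks per Mb over the whole genome. By the same interval, the lists with 0 body peaks allow up to 1.01 per Mb.

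The PBRM1 and BRG1 lists had the same mean count of Vmn2r genes with a promoter peak, 0.333 ± 0.577 genes for each antibody (SD, n = 3), with an exact permutation p of 1. The count with a body peak was 0.667 ± 1.15 for PBRM1 and 0.667 ± 0.577 for BRG1 (exact permutation p = 1). With 3 against 3 lists the smallest possible p is 0.1, so no difference of any size could have passed the threshold of 0.05.

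Other gene families gave a scale for these counts. Vmn1r genes, which encode the V1R receptors of the apical vomeronasal neurons, had a promoter peak at 1 of 207 members in each replicate list. Olfr genes, which encode the odorant receptors of the nose, had 2 to 8 of 1093. Zfp9xx genes, the 63 zinc finger genes whose symbol is Zfp9 and a pair of digits, had 26 to 34. The promoter share of Vmn2r genes differed by -0.205 percentage points from that of Vmn1r genes (exact sign-flip p = 0.25, adjusted 0.286) and by -0.195 from that of Olfr genes (exact p = 0.34375, adjusted 0.344), both within the spread between lists. It differed by -47.9 points from that of Zfp9xx genes, which averaged 48.1% (exact p = 0.0312, adjusted 0.0417, lower in 6 of 6 lists).

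The single Vmn1r gene was Vmn1r4 in every list, at a fold enrichment of 6.65 to 13.2. Its first annotated start lies 83 bp from a start of Nt5c3, a nucleotidase gene. Per Mb of gene body, the peak density of Vmn2r genes differed by -0.471 from that of Vmn1r genes, by -0.639 from that of Olfr genes and by -17 from that of Zfp9xx genes, each lower in 6 of 6 lists with an exact p of 0.0312 (adjusted 0.0417). The Vmn1r density of 0.653 rests on that 1 peak per list. By share of genes with a body peak, Vmn2r genes were not below these receptor families. The replicate lists averaged 0.556% ± 0.68 (SD) for Vmn2r, 0.483% for Vmn1r and 0.473% for Olfr genes, which was not tested. Vmn2r genes are longer, with a median of 27159.5 bp against 6796 bp for Vmn1r and 5987 bp for Olfr genes.

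**Figure D1:**
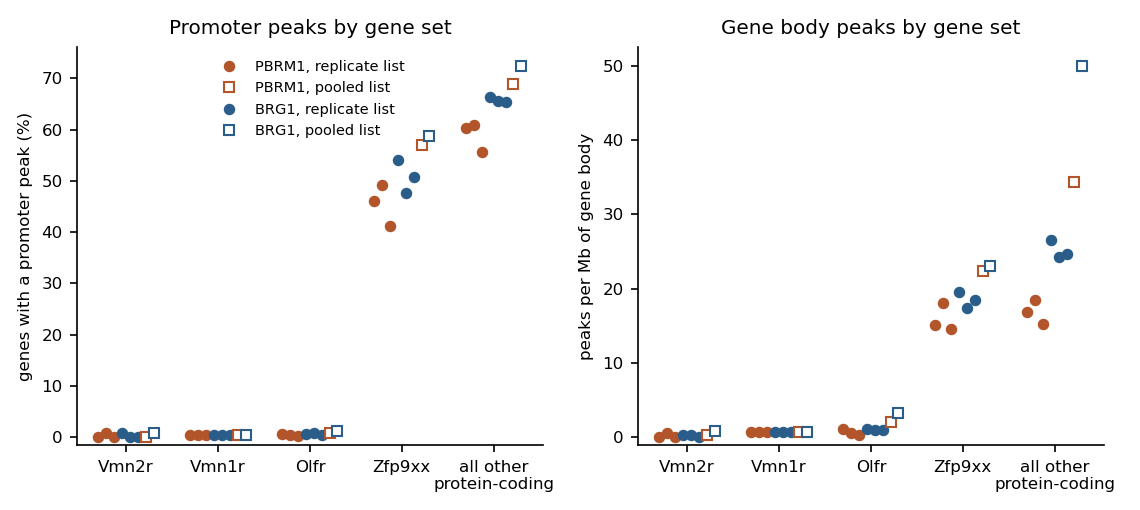
Share of genes with a promoter peak (left, percent) and peaks per Mb of gene body (right) in 5 gene sets, with a filled circle for each replicate list and an open square for each pooled list. Vmn2r, Vmn1r and Olfr genes lie near 0 in every list, and Zfp9xx genes average 48.1% and 17.2 peaks per Mb over the replicate lists.

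Reads that map to several places were removed before peaks were called, and Vmn2r genes hold many stretches that recur in the genome. Of the 50-base words in Vmn2r gene bodies, 69.4% occur once in the genome, against 92.9% in other protein-coding genes, 83% in Vmn1r genes and 58.3% in Zfp9xx genes. Zfp9xx genes averaged 17.2 peaks per Mb. The part of repeated sequence in the Vmn2r counts was not tested as a cause. In the 76 members whose start windows were at least 80% unique, the promoter share differed by -67 percentage points from that of other genes passing the same filter, a set added after the data were seen (adjusted exact permutation p = 0.05, just short of the threshold). Per Mb of unique words, the replicate lists had 0 to 0.787 peaks in Vmn2r bodies, 3 to 8.1 between genes and 9.62 to 17.8 over the whole genome.

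CG content also moved with the share of genes that had a promoter peak. Among other protein-coding genes with 0 to 4 CG at the start, the range of the Vmn2r genes, 15.1% to 21.8% had a promoter peak in the replicate lists. Without the Vmn1r and Olfr genes the range was 18.7% to 26.9%. Among genes with 20 or more CG it was 86.6% to 96.9%. The part of CG content in the Vmn2r counts was not tested.

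**Figure D2:**
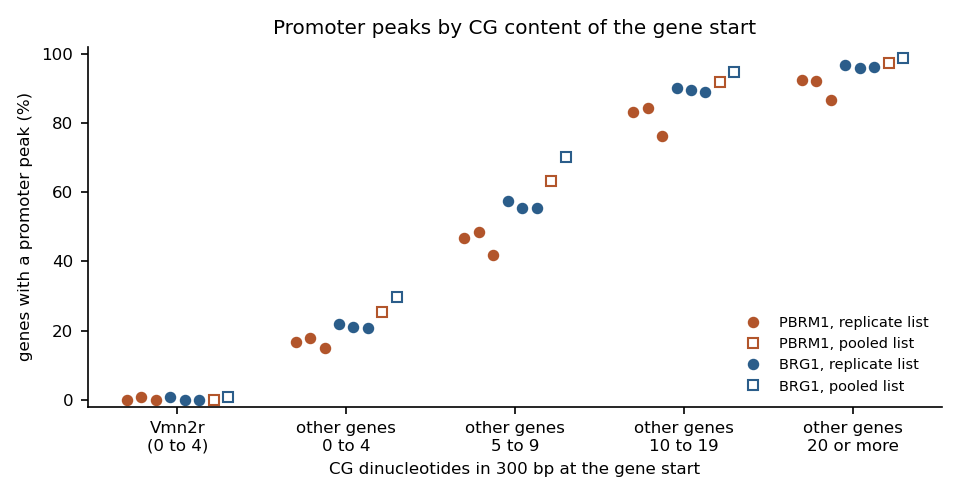
Percent of genes with a promoter peak by the number of CG dinucleotides in the 300 bp at the gene start, for the 120 Vmn2r genes and for other protein-coding genes, with filled circles for replicate lists and open squares for pooled lists. Other genes with 0 to 4 CG lie at 15.1% to 29.7% and Vmn2r genes at 0% or 0.833%.

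The 4 members with a peak were Vmn2r7, Vmn2r1, Vmn2r23 and Vmn2r91. The last 3 have no promoter peak and were picked out once their values had been seen. The peaks at these members fell at 6 distinct sites, all intronic, and 0 of these sites appeared in more than 1 replicate list. Over the 6 replicate lists the members held 4 of 186113 peaks.

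Vmn2r7, a family C receptor, was the only member with peaks in 2 replicate lists. GENCODE places it at chr3:64685044-64844765 on the minus strand, with 3 start sites. The PBRM1 replicate 2 peak at chr3:64843778-64844005 had a fold enrichment of 3.91 over the local background, a −log10 q of 2.34 and a pileup of 7 fragments. Its summit lies 929 bp inside the outermost start. The BRG1 replicate 1 peak at chr3:64843039-64843241 had a fold enrichment of 4.03, a −log10 q of 2.64 and a summit 1701 bp from that start. The pooled BRG1 list kept the second site, at a fold enrichment of 3.71. The pooled PBRM1 list kept neither and instead had a peak at chr3:64791067-64791326, at 3.23, with its summit 20426 bp from the nearest Vmn2r7 start. By −log10 q the 2 replicate peaks stand at percentiles 7.08 and 9.98 of their lists, whose median fold enrichment was 5.15 in both.

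The outermost start of Vmn2r7 is shared, within the 2000 bp window, with the processed transcript Gm26939. RefSeq gives Vmn2r7 a single start near base 64719602 of chromosome 3, which GENCODE also lists. With RefSeq start sites Vmn2r7 had no promoter peak in any list.

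The reverse held for Vmn2r29. At its GENCODE start sites it had no promoter peak, but RefSeq adds the upstream start shown above, whose window is the start of the protein-coding gene Gm45844 in GENCODE. A peak overlapped the 2000 bp around that start in PBRM1 replicates 1 and 2 (fold enrichment 6.45 and 4.88), in BRG1 replicates 1, 2 and 3 (6.77, 7.37 and 4.87) and in both pooled lists (6.82 for PBRM1 and 8.32 for BRG1). PBRM1 replicate 3 had none. Summits stood 109 to 443 bp from the start. With RefSeq starts, 1 of the 114 matched members thus had a promoter peak in 5 of 6 replicate lists, always Vmn2r29, where 55.5% to 65.7% of the 16539 matched protein-coding genes had 1. The RefSeq starts were examined after the data were seen.

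Vmn2r1, another family C gene, had an intronic peak at chr3:64085082-64085346 in BRG1 replicate 2, with a fold enrichment of 5.1 and a −log10 q of 4.26, the highest at a member in a replicate list when GENCODE starts are used. The pooled BRG1 list had an overlapping peak at 3.99, and the other 6 lists had none. Its summit in replicate 2 lies 3626 bp from the Vmn2r1 start. Vmn2r23 had a peak in PBRM1 replicate 2 at chr6:123735610-123735798 with a fold enrichment of 3.42 and a −log10 q of 1.58, and the small nucleolar RNA gene Gm22724 starts within 2000 bp of it. Vmn2r91 had a peak in the pooled BRG1 list alone, at chr17:18130713-18130879 with a fold enrichment of 3.71, in sequence that is 95.8% soft-masked as repeat. Of the 7 family C genes 2 had a peak, and of the other 113 members 2 did. Among all protein-coding genes, 77.1% had a promoter or body peak in some list. The difference between family C and the other members was not tested. Vmn2r7 is also the longest member, at 159722 bp against a median of 27159.5 bp.

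Distance gave the same picture without a window. The median Vmn2r start lay 318 to 380 kb from the nearest peak in the replicate lists, 356 kb in the pooled PBRM1 list and 248 kb in the pooled BRG1 list. More than 100 kb separated 79.2% to 85.8% of members from a peak in the replicate lists. Of other protein-coding genes, 14.0% to 18.0% lay that far from a peak in these lists, and their median distance was 0 to 0.163 kb. The medians for the other receptor families were 232 to 272 kb for Vmn1r genes and 286 to 338 kb for Olfr genes, and 77.8% to 82.6% and 73.4% to 77.4% of their members lay more than 100 kb from a peak. The median for Zfp9xx genes was 0.017 to 49.8 kb.

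**Figure D3:**
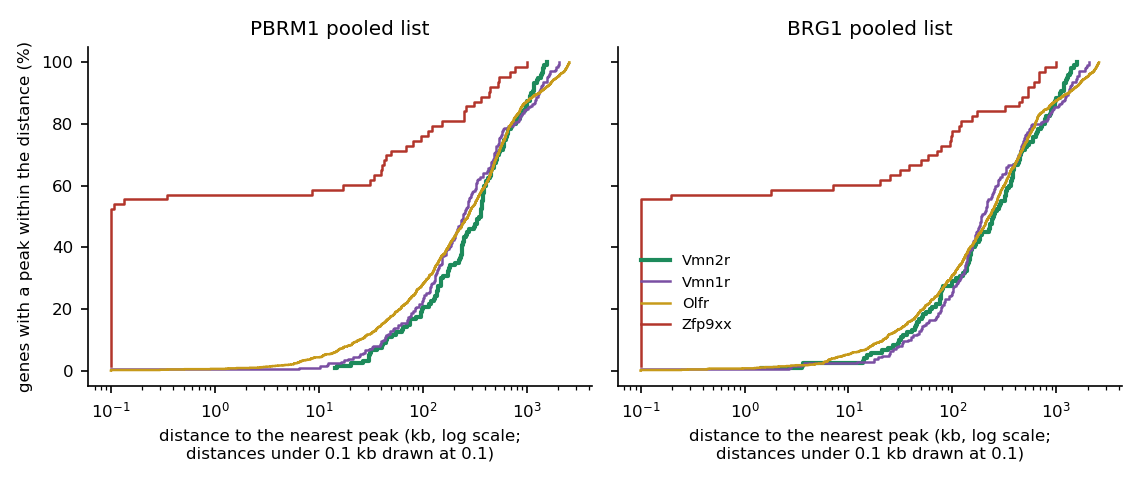
Cumulative percent of genes in 4 families against the distance from the gene start to the nearest peak (kb, log scale) in the pooled PBRM1 list (left) and the pooled BRG1 list (right). The Vmn2r curve crosses its midpoint at 356 kb and 248 kb, and the Zfp9xx curve starts above 50% at the left edge.

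Members within 1000000 bp of each other formed 12 arrays that hold 115 of the 120 genes over 13.5 Mb. Peaks did occur inside these arrays, 12 to 24 per replicate list, where the same lists held 8.26 to 15.3 peaks per Mb over the whole genome. Of the peaks inside the arrays, 11 to 20 lay within 2000 bp of the start of another gene, 0 to 2 lay at a Vmn2r gene, and 1 to 3 lay elsewhere. The share of all peaks that lie this near a gene start is not given here. In 3 arrays with 29 members and 2.95 Mb, no list held any peak. The longest of them runs from Vmn2r65 to Vmn2r79 on chromosome 7, spans 2.11 Mb and holds 15 members, 15 other chemoreceptor genes and Folh1.

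The array of Vmn2r57 to Vmn2r63, also on chromosome 7, spans 1.54 Mb and mixes 7 members with 13 other genes. Of its zinc finger genes, Zfp788, Zfp141 and Zfp975 carried a promoter peak in all 6 replicate lists, Zfp976 in 4 and Zfp977 in 0, while the 7 members had no peak. Over all arrays, 9 of the 23 other protein-coding genes that encode no chemoreceptor had a promoter peak in all 6 replicate lists, below the 51.9% of all protein-coding genes, a difference that was not tested. These included Spaca6, a gene for a sperm protein, and Clcn4, a chloride and proton exchanger.

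**Figure D4:**
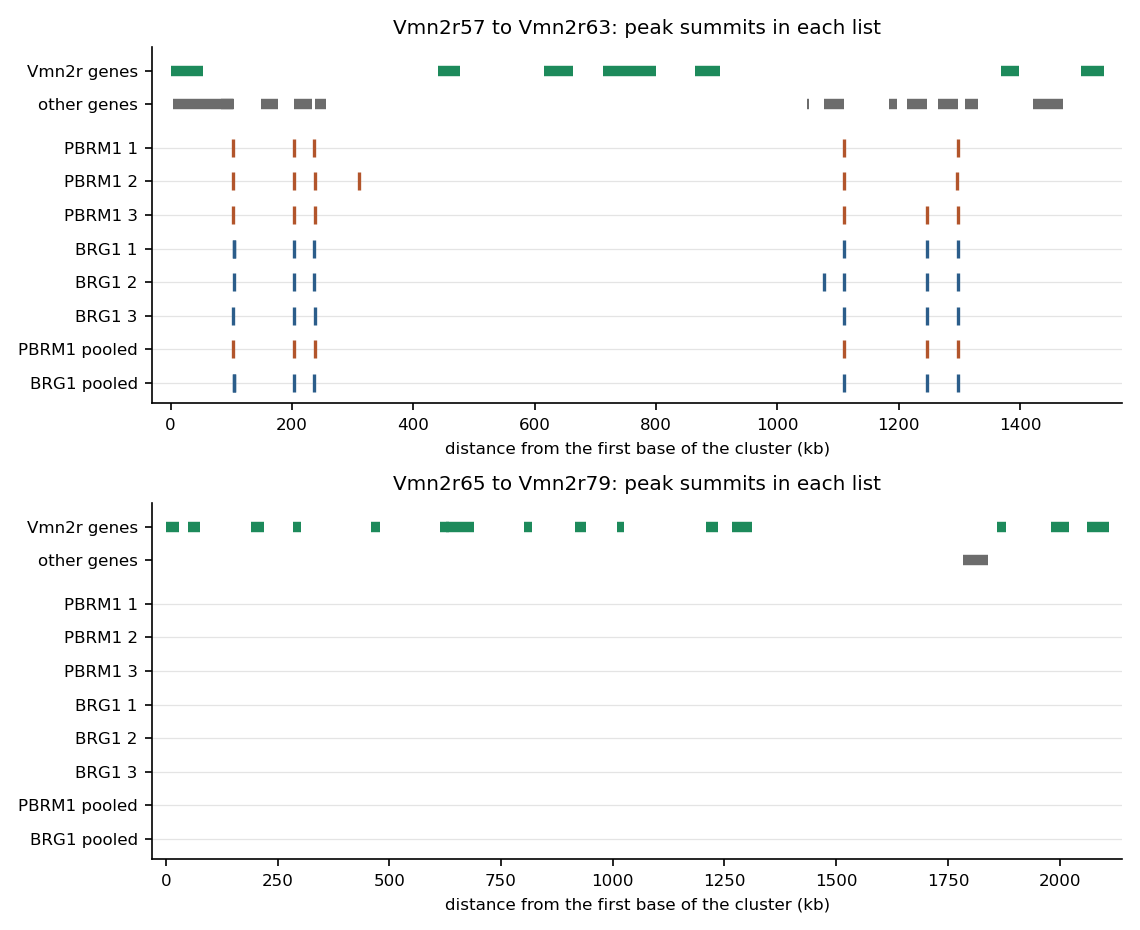
Maps of the Vmn2r57 to Vmn2r63 array (top) and the Vmn2r65 to Vmn2r79 array (bottom), with distance from the first base of the array in kb on the horizontal axis, Vmn2r genes in green, other protein-coding genes that are no chemoreceptors in grey, and a tick for each peak summit in each of the 8 lists. The top map shows columns of ticks near grey genes and none at green genes, and the bottom map holds 0 peaks.

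Among the sites in the arrays that recurred away from any protein-coding start, 3 had a fold enrichment above 5 in every list that held them. The site shown above, at chr17:17909874-17910593 in the pooled BRG1 list, was in all 8 lists at a fold enrichment of 9.99 to 16.1, and the nearest member start, of Vmn2r124, is 139 kb away. No annotated start of any gene lies within 2000 bp of it. On chromosome 10, a peak at chr10:130470235-130470788 was in 7 lists at 6.53 to 12.5, with its summit inside the processed pseudogene Gm18755 in each. The nearest member start, of Vmn2r86, is 14.5 kb away. The body of another member, Vmn2r87, lies just beyond the peak, at chr10:130471052-130497396 on the minus strand, with its far end toward the peak. The third, in the array of Vmn2r111 to Vmn2r117, lies at the start of the lincRNA gene Gm16386, at chr17:22817492-22818067 in the pooled BRG1 list, and was in all 8 lists at 5.56 to 13.5. These values exceed the highest fold enrichment at any Vmn2r gene by the GENCODE starts, 5.1. The 3 sites were chosen after their values had been seen.

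Signaling genes of vomeronasal neurons, of both the V2R and the V1R kind, were counted in the same way. Of 8 such genes, 2 had a promoter peak in all 6 replicate lists, and all 8 had 1 in some list. Among all protein-coding genes the shares were 51.9% and 73.6%. Gng8, a G protein gamma subunit of vomeronasal neurons, had fold enrichments of 7.27, 5.89 and 5.11 for PBRM1 and 9.93, 9.34 and 9.52 for BRG1. Gnai2, the G protein alpha subunit of V1R neurons, had 5.94, 3.99 and 4.67 for PBRM1 and 6.99, 7.33 and 6.01 for BRG1. Gnao1, the alpha subunit of V2R neurons, had a promoter peak in PBRM1 replicate 1 at 5.37 and in BRG1 replicates 1 and 3 at 4.19 and 5.91. Trpc2 had peaks in BRG1 replicates 1 and 3, at 4.25 and 3.96, and in no PBRM1 list.

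Genes for V2R ligands and for class Ib MHC proteins had fewer promoter peaks, where 73.6% of all protein-coding genes had 1 in some list. The 15 Esp genes, which encode exocrine gland-secreted peptides, and the 22 Mup genes, which encode major urinary proteins, had a promoter peak in 0 lists. Of 10 genes for class Ib MHC proteins and their light chain, only the light chain gene B2m had a promoter peak, with fold enrichments of 6.71, 5.45 and 4.31 in the PBRM1 replicates and of 6.95, 6.1 and 5.74 in the BRG1 replicates. The 7 formyl peptide receptor genes, a family split between immune cells (Fpr1 and Fpr2) and the vomeronasal organ, had none. Of 5 transcription factors of vomeronasal neurons, Meis2 had a promoter peak in all 6 replicate lists, where 51.9% of all protein-coding genes had 1. The other 4 had a promoter peak in 1 to 4 replicate lists, and all 5 had 1 in some list.

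As a check on the labelled cells, 5 of 6 stromal genes had a promoter peak in all 6 replicate lists, where 51.9% of all protein-coding genes had 1. Hand2 was among them, with fold enrichments of 3.17 to 4.65 in the PBRM1 lists and of 6.41 to 10.2 in the BRG1 lists. None of 5 epithelial genes did, although each had a promoter peak in 2 to 5 replicate lists, and Krt8 and Cdh1 in 5. The remaining stromal gene, Col1a1, had 1 in 4 replicate lists. Of 5 marker genes of vomeronasal neurons, 2 had a promoter peak in all 6 replicate lists and all 5 had 1 in some list. A promoter peak does not measure transcription, so this check does not settle which cells were present.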

How the data were processed

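ChIC-Seq was performed by the authors on 6 WT libraries, 3 per antibody. The authors trimmed reads with cutadapt, aligned them with Bowtie2 to GRCm38, removed reads that map to several places and duplicates, and called peaks with MACS (version 2.2.7.1) for each library and for the 3 libraries of an antibody together, with no control library and a q-value cutoff of 0.05. The deposited lists give for each peak the pileup signal (fragment coverage at the summit), the fold enrichment ratio over the local background, and the −log10 q-value. Calls without a control depend on the 10000 bp around each peak.

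Peaks were overlapped with GENCODE genes by at least 1 bp, with pandas 2.3.3 and numpy 2.4.6. The counting was checked on planted peaks and against bedtools 2.31.1. Exact permutation tests (scipy 1.17.1) compared gene sets within the 6 replicate lists by sign flips, and the 2 antibodies over 3 lists each. Pooled lists reuse the replicates' reads and entered no test. Unique 50-base words were counted over the genome sequence. Promoter and genome sequences are from RefSeq, GRCm38.p6. Named genes were members with a promoter peak in any list or a body peak in at least 2 replicate lists, owners of start sites that these peaks overlap, and fixed pathway and marker lists. The members and lists were chosen with earlier results of these data known. A gene of the transduction list is not reported here and was left out of its counts. Alternatives covered the start-site distance, peak strength, summit position, annotation, list size, neighbouring genes, replicate lists and unique sequence.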

Additional observations from a re-analysis of the deposited data

How the results depend on the processing

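The near absence of peaks at Vmn2r genes kept its direction in every alternative run. The promoter difference from other protein-coding genes ran from -67 to -42.3 percentage points, and the body difference from -22.4 to -6.37 peaks per Mb. Adjusted p rose to 0.05 with the summit required inside, where the differences were -61.9 points and -17.5 per Mb, and to 0.05 among genes with 80% unique start windows (-67 points). It was 0.125 for body peaks over 2000 bp from the own start sites (-6.37 per Mb) and 0.0625 per Mb of unique words (-22.4). An adjusted p depends on the other family comparisons adjusted with it. It can rise while the exact p of its own comparison stays the same. These rises alone therefore do not show a weaker difference from other protein-coding genes. The -6.37 leaves out peaks near the own start sites, and the -22.4 divides by unique words alone, so each measures another quantity. Why the other differences moved was not tested. The alternatives with unique words and with RefSeq starts were chosen after seeing the data. With any 1 replicate list left out, every adjusted p was at least 0.0833, the least that 5 lists allow here. The promoter difference then ran from -63.4 to -61.4 points from other genes and from -49.2 to -46.8 from Zfp9xx genes. The body difference ran from -22 to -19.7 per Mb from other genes, -0.543 to -0.434 from Vmn1r, -0.766 to -0.548 from Olfr and -17.5 to -16.6 from Zfp9xx genes.

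Counts in the pooled lists rest on single weak peaks. The BRG1 promoter count of 1 became 0 within 1000 bp of a start, 3 within 5000 bp, and 0 with a −log10 q of at least 5, with a fold enrichment of at least 5, or with a peak in all 3 replicates. The last 3 settings also took the body counts from 3 (BRG1) and 1 (PBRM1) to 0. RefSeq starts took the PBRM1 promoter count from 0 to 1. With same-numbered libraries paired as a replicate block, the difference between BRG1 and PBRM1 remained 0 for promoters and 0 for bodies, with an exact p of 1, and the labels do not say that the numbers mark shared preparations. Counting error over 3.67 Mb of gene body allows a list with 0 body peaks up to 1.01 per Mb (exact Poisson 95% interval).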

Other observations

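The 118 Vmn2r genes that GENCODE does not list as protein-coding, nearly all of them numbered pseudogenes, were counted in the same way. They had 0 promoter peaks in 5 of the 6 replicate lists and in the pooled PBRM1 list. BRG1 replicate 3 had 1, at Vmn2r-ps19, and the pooled BRG1 list had 3, at Vmn2r-ps15, Vmn2r-ps18 and Vmn2r-ps19. The only body peak was at Vmn2r-ps54 in PBRM1 replicate 2. Among protein-coding genes, 65.0% had a promoter peak in BRG1 replicate 3 and 72.1% in the pooled BRG1 list. In PBRM1 replicate 2, 61.6% of them had a body peak. The share over all pseudogenes is not given here. Olfr94 was the only Olfr gene with a promoter peak in all 6 replicate lists, at a fold enrichment of 6.01 to 11.6, and its start window holds 1 CG. Vmn1r4 holds 42. Each of these genes was chosen after its values had been seen.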
